A study of Mus musculus with 7 samples.

Results

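Melanin is made in pigment cells inside melanosomes, lysosome-related organelles in which tyrosine is oxidised and polymerised on a protein scaffold. Tyrosinase carries out the rate-limiting oxidation, its relatives TYRP1 and DCT process later intermediates, PMEL builds the fibrils on which pigment is laid down, and membrane transporters set the pH and ion content that tyrosinase needs. The melanocortin receptor MC1R raises cyclic AMP and, through the transcription factor MITF, drives these genes. The 10 genes described here cover these roles: the enzymes Tyr, Tyrp1 and Dct, the melanosome proteins Pmel and Mlana, the transporters Slc45a2, Slc24a5 and Oca2, the melanosomal receptor Gpr143 and the surface receptor Mc1r. They were taken by symbol from the probe set annotation, and all 10 had a probe set of their own, among 19938 genes measured.

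Each of the 7 samples had its RNA hybridised to 1 Mouse Gene 1.0 ST array from Affymetrix, and the labels gave no drug or other treatment to any of them. B16F10, a pigmented mouse melanoma line, gave 6 of the arrays: clones A2, A3, A4 and A5, labelled PECAM1+ (n = 4), and clone A1 and parental B16F10 cells, both labelled negative and called PECAM1- here (n = 2). The seventh was a culture of mouse dermal endothelial cells (MDEC), labelled PECAM1+ and grown in DMEM with an endothelial growth supplement, whereas the B16F10 cells had DMEM with 10% fetal bovine serum and an antibiotic mix. The labels did not say how the clones were derived, nor that a group's samples came from separate cultures. The p-values given here therefore reflect the sample-to-sample spread alone, and part of it may be technical.

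The arrays had medians of 6.12 to 6.18 log2 units, and no detection calls were used. Pecam1 averaged 11.03 ± 0.03 (SD, n = 4) over the PECAM1+ clones, with 5.43 in clone A1 and 5.27 in parental cells. Of 5 melanocyte markers, the B16F10 arrays held all 5 above the MDEC array, and of 8 endothelial markers 7 were higher in MDEC than on any B16F10 array. Vwf was the exception, at 6.55 to 7.05 in the PECAM1+ clones, 6.87 in clone A1, 6.93 in parental cells and 6.41 in MDEC. Of 5 Schwann cell and glial markers 3 were measured (S100b, Mbp and Pmp22), and their summed log2 level was 32.37 to 32.84 in the PECAM1+ clones, 29.50 in clone A1, 28.92 in parental cells and 24.14 in MDEC. Pmp22 had the largest difference of the 3 between PECAM1+ and PECAM1- samples (2.39 ± 0.37, SE; limma adjusted p = 0.312), and S100b was higher in clone A1 than in 3 of the 4 PECAM1+ clones. At 11.38, Pmp22 in MDEC lay above clone A4 (10.94), parental cells (9.46) and clone A1 (8.93) and below clones A2, A3 and A5. The part of such cells in the results was not tested. Clone A1 stood apart from the rest of B16F10, where 1271 genes lay 2-fold or more away from the average of the remaining 5. These cultures are bulk samples, in which fewer cells of a type and less RNA per cell cannot be told apart.

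MITF binds short letters of the E-box type, among them CATGTG, in the promoters of pigment genes. RefSeq promoter windows of the build GRCm38.p6 were held for 6 of the 10 genes (Tyr, Tyrp1, Dct, Slc24a5, Oca2 and Mc1r). The other 4 are Pmel, Mlana, Slc45a2 and Gpr143. CATGTG, read on both strands, occurred in the 250 bases before the start site in all 6, where 12.3% of 32851 windows of that length held it. CACGTG, a related motif that does not overlap it, occurred in 0 of the 6 and in 6.02% of all windows. The stretches around each match are shown, because they set the pigment promoters side by side, each in the direction in which the capitals read CATGTG. Their coordinates are chr7:87493516-87493545 (minus strand) for Tyr, chr4:80834155-80834184 (plus) for Tyrp1, chr14:118052379-118052408 (minus) and chr14:118052461-118052490 (plus) for Dct, chr2:125068102-125068126 (minus) for Slc24a5, chr7:56239561-56239590 (minus) for Oca2, and chr8:123407019-123407048 (plus) and chr8:123407008-123407037 (minus) for Mc1r.
Tyr: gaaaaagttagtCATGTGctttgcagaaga
Tyrp1: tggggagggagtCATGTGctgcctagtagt
Dct, nearer match: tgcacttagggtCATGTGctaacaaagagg
Dct, farther match: ctttattgggctCATGTGtcccagccaagc
Slc24a5: gctgaatCATGTGagcagtctcctt
Oca2: gaaaattccagcCATGTGtagcaagctcaa
Mc1r, nearer match: gcacatgcccatCATGTGgccaccctcagg
Mc1r, farther match: ccacatgatgggCATGTGccagggatgtgt

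The match began 21 bases before the start site in Tyr, 46 in Tyrp1 and 150 in Dct, and these 3 shared the longer letters TCATGTGC, which 0.764% of all windows held. That longer motif was chosen after the sequences had been read. In Oca2 the match lay 186 bases before the start and in Slc24a5 13 bases before it. The whole upstream windows of Tyr and Tyrp1 follow, because these related enzyme genes had the widest and the narrowest range of level over the B16F10 arrays, as given further on. That of Tyr spans chr7:87493513-87493762 on the minus strand and that of Tyrp1 chr4:80833963-80834212 on the plus strand, with the matches in capitals.
Tyr: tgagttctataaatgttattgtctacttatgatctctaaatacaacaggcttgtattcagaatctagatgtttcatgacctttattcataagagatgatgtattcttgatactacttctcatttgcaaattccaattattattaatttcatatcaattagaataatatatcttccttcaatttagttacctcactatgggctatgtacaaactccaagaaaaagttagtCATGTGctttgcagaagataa
Tyrp1: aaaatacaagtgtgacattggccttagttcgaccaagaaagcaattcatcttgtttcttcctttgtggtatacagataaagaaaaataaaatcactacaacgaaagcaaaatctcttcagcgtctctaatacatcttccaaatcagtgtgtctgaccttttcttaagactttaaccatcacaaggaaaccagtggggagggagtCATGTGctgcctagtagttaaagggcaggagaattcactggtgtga
A match describes these letters in the reference and says nothing of binding in these cells, which was not measured.

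The first comparison asked whether the PECAM1+ clones differed in pigment genes from the PECAM1- samples. None of the 10 genes passed: limma, fitted over all 19938 genes with Benjamini-Hochberg adjustment at 0.05, called 0 of the 10 genes, where it called 0.0100% of all genes. At an unadjusted p under 0.05 there was 1, Gpr143, where 9.18% of all genes were that low. Of the 10, 4 had a higher mean in the PECAM1+ clones and 6 a lower mean, and the median difference was -0.05, against 0.00 over all genes. The groups did not overlap for 1 of the 10 genes, Gpr143, where 16.4% of all genes had groups apart in either direction.

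**Figure D1:**
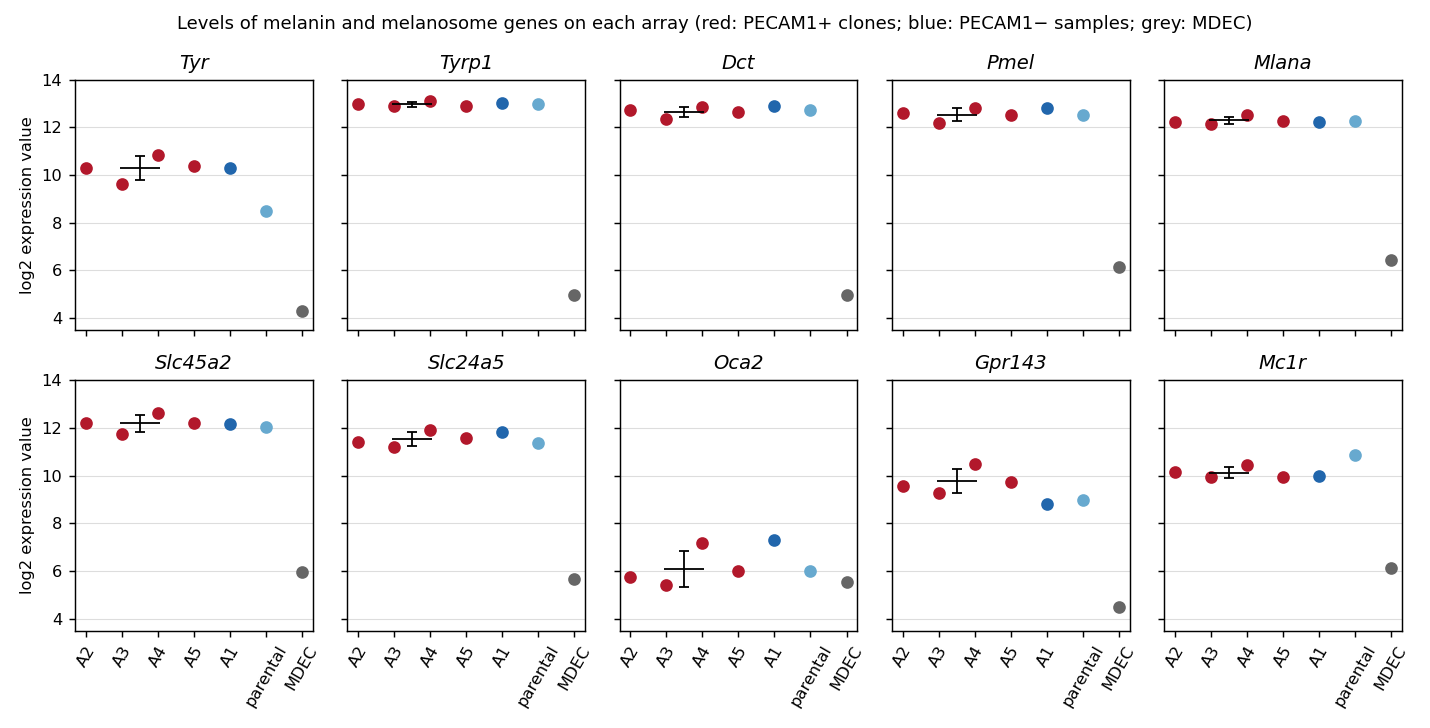
Log2 expression value (vertical axis) of each of the 10 genes on each array (horizontal axis), 1 dot per array; the bar and whiskers give the mean and SD of the 4 PECAM1+ clones, and levels cannot be compared between genes. Tyr is lowest of the B16F10 arrays in parental cells (8.49), Mc1r is highest there (10.88), and MDEC lies below all B16F10 arrays for every gene but Oca2.

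Tyr, the gene of tyrosinase, had 10.29, 9.63, 10.84 and 10.38 in PECAM1+ clones A2, A3, A4 and A5, 10.29 in clone A1 and 8.49 in parental cells. Parental cells were the low array, and clone A1 lay inside the range of the PECAM1+ clones, so the groups overlapped. The difference between PECAM1+ and PECAM1- samples was 0.89 ± 0.57 (SE), with a limma adjusted p of 0.550. Against parental cells alone it was 1.79 ± 0.48 (SE; 95% interval 0.46 to 3.13), which had an unadjusted limma p of 0.0202 and did not pass after adjustment (0.270). Against clone A1 alone it was -0.00 ± 0.48 (SE), with an interval of -1.34 to 1.33. Clones A5, A1 and A2 were neighbours in the order of levels and lay within 0.09 of each other, less than the SD of 0.50 among the PECAM1+ clones.

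The related enzyme gene Tyrp1, which in mice encodes an oxidase of a late melanin intermediate, varied least of the 10 genes in B16F10. It had 12.98, 12.90, 13.09 and 12.89 in clones A2 to A5, 13.03 in clone A1 and 12.99 in parental cells. Its whole range was 0.20, at the bright end of the scale: the highest value on a B16F10 array was 13.43 to 13.53, and only 7 genes had a higher B16F10 mean. Of the 10 genes, 5 were at 12 log2 units or more: Tyrp1, Dct, Pmel, Mlana and Slc45a2. The 131 genes that bright had a median range of 0.302, against 0.378 over all genes. Compression of differences at that end was not tested for any of them. The Tyrp1 difference of -0.05 ± 0.07 (SE) had a 95% interval of -0.21 to 0.12 and a limma adjusted p of 0.790. Dct, whose product rearranges dopachrome, had 12.72, 12.34, 12.86 and 12.65 in clones A2 to A5, 12.89 in clone A1 and 12.72 in parental cells. Its low array was clone A3, and its difference of -0.16 ± 0.15 (SE) did not pass (limma adjusted p = 0.654).

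Pmel, the gene of the fibril-forming scaffold protein, had 12.61, 12.17, 12.82 and 12.54 in clones A2 to A5, 12.81 in clone A1 and 12.54 in parental cells. The values of clone A5 and parental cells were identical, and 8.40% to 13.1% of all genes shared a value in a pair of B16F10 arrays. Clones A2 and A1 likewise shared their value of Mlana, and clone A5 and parental cells that of Oca2. Mlana, whose product helps PMEL to mature, had 12.24, 12.13, 12.52 and 12.28 in clones A2 to A5, 12.24 in clone A1 and 12.26 in parental cells. For both genes clone A3 was the lowest and clone A4 the highest B16F10 array. The difference between PECAM1+ and PECAM1- samples was -0.14 ± 0.19 (SE) for Pmel and 0.04 ± 0.11 (SE; 95% interval -0.23 to 0.32) for Mlana.

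Slc45a2 encodes a melanosomal transporter that raises pH in the maturing organelle. It had 12.22, 11.76, 12.63 and 12.20 in clones A2 to A5, 12.18 in clone A1 and 12.04 in parental cells. Both PECAM1- samples lay inside the range of the PECAM1+ clones. Slc24a5 encodes an exchanger of sodium, calcium and potassium ions, and had 11.43, 11.20, 11.92 and 11.57 in clones A2 to A5, 11.81 in clone A1 and 11.36 in parental cells. The differences between PECAM1+ and PECAM1- samples were 0.09 ± 0.23 (SE) for Slc45a2 and -0.05 ± 0.23 (SE) for Slc24a5, with limma adjusted p values of 0.884 and 0.937.

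Oca2, the pink-eyed dilution gene, encodes a melanosomal chloride channel. It had 5.74, 5.41, 7.18 and 6.00 in clones A2 to A5, 7.30 in clone A1 and 6.00 in parental cells. Clones A1 and A4 were high and the other 4 arrays low, a split that crossed the PECAM1 label. The low values lay below the medians of their arrays and near the 5.54 of MDEC. Without detection calls, they may be background. The difference between PECAM1+ and PECAM1- samples was -0.57 ± 0.60 (SE), with a limma adjusted p of 0.701. It was -1.22 ± 0.74 (SE) against clone A1 alone and 0.08 ± 0.74 (SE) against parental cells alone. Clone A1 exceeded parental cells by 1.30, with 1 array of each and no test.

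Gpr143, the ocular albinism receptor of the melanosome membrane, was the gene whose groups were apart. It had 9.59, 9.28, 10.49 and 9.72 in clones A2 to A5, 8.81 in clone A1 and 8.96 in parental cells. Every PECAM1+ clone lay above both PECAM1- samples, with a gap of 0.32 between clone A3 and parental cells. The difference was 0.89 ± 0.34 (SE; 95% interval 0.04 to 1.73), with an unadjusted limma p of 0.0430 that did not pass after adjustment (0.529). It was 0.96 ± 0.50 (SE) against clone A1 alone and 0.81 ± 0.50 (SE) against parental cells alone.

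Mc1r, the receptor for melanocyte-stimulating hormone, had 10.17, 9.94, 10.45 and 9.94 in clones A2 to A5, 9.98 in clone A1 and 10.88 in parental cells. Parental cells were the high array, and clone A1 lay among the PECAM1+ clones. Against parental cells alone the difference was -0.75 ± 0.24 (SE; 95% interval -1.41 to -0.10), with an unadjusted limma p of 0.0333 and an adjusted p of 0.314. Against both PECAM1- samples it was -0.30 ± 0.29 (SE; limma adjusted p = 0.663), and against clone A1 alone 0.14 ± 0.24 (SE). The 20 measured genes nearest Mc1r along its chromosome in GRCm38.p6 differed by a median of -0.16 against parental cells and -0.29 against clone A1. For those nearest Tyr the medians were 0.01 and 0.08. The part of position in these differences was not tested.

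**Figure D2:**
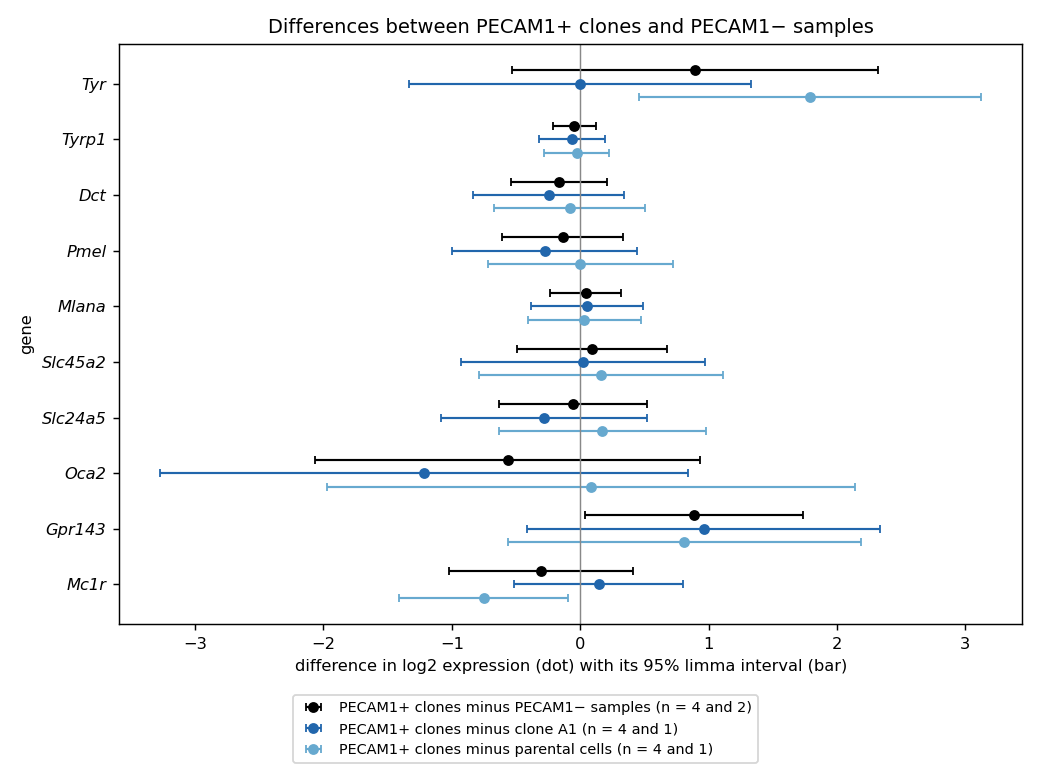
Difference in log2 expression (horizontal axis) of the PECAM1+ clones from both PECAM1- samples (black), clone A1 (dark blue) and parental cells (light blue), for each gene (vertical axis), with 95% limma intervals. The intervals leave out 0 for Gpr143 against both samples and for Tyr and Mc1r against parental cells, and none of these passed after adjustment.

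The 2 PECAM1- samples are different kinds of sample, so each was also set against the PECAM1+ clones alone, with the spread taken from the clones. Against clone A1, limma called 0 of the 10 genes and 20.5% of all genes (11.1% without clone A3 and 10.6% without clone A5), and 0 of the 10 had an unadjusted p under 0.05, where 34.2% of all genes did. Against parental cells it called 0 of the 10 and 0.0100% of all genes, with 2 of the 10, Tyr and Mc1r, at an unadjusted p under 0.05, where 13.5% of all genes were. Both comparisons share the 4 PECAM1+ arrays. The pigment genes varied more among those arrays than most genes: their SD over the PECAM1+ clones had a median of 0.29 (0.09 to 0.77), against a median of 0.10 over all genes, and 9 of the 10 exceeded that median. This spread enters every interval given above.

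The range over the B16F10 arrays had a median of 0.795 for the 10 genes and 0.378 over all genes, and 9 of the 10 exceeded the latter. The widest ranges were those of a few genes. Tyr, Oca2 and Gpr143 spanned 2.35, 1.89 and 1.68 log2 units over the 6 arrays, and these 3 of the 10 reached 1 unit, as did 11.7% of all genes. The other 7 spanned 0.20 (Tyrp1) to 0.94 (Mc1r). When an array was set against the average of the remaining 5, clone A4 was 2-fold or more away for 3 of the 10 genes (Tyr, Oca2 and Gpr143), where 0.391% of all genes were. That average includes the low parental value of Tyr and the low PECAM1- values of Gpr143. Above the average of the other PECAM1+ clones alone, clone A4 stood 0.74 for Tyr and 0.96 for Gpr143, both under 2-fold, and 1.465 for Oca2. Clone A1 was that far away for 1 of the 10, Oca2, and for 6.37% of all genes. Parental cells were that far away for 1, Tyr, where 0.722% of all genes were, and clone A3 for 1, Oca2, where 0.542% were.

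**Figure D3:**
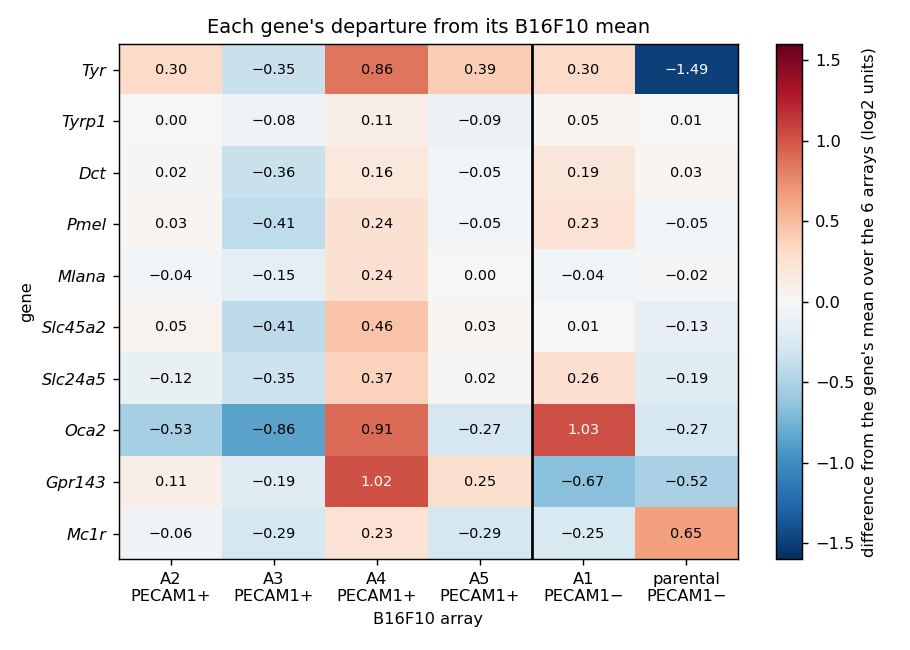
Departure of each B16F10 array (columns) from the gene's mean over the 6 arrays (rows, log2 units in each cell; red above the mean, blue below). The A4 column is above the mean for all 10 genes and the A3 column below it for all 10, while the largest single departures are Tyr in parental cells (below) and Oca2 in clone A1 and Gpr143 in clone A4 (above).

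Clone A4 stood at the upper end of the PECAM1+ clones for all of these genes, and clone A3 at the lower end for most, while the order of clones A2 and A5 varied by gene. Clone A4 had the highest level of the 4 clones for 10 of the 10 genes, where it was highest for 19.6% of all genes. It was highest for 20.7% of the 10368 genes whose SD over the clones was at least that of Tyrp1. That SD, 0.094, lay near the median of all genes (0.0976), whereas the median of the 10 genes was 0.285. The 20.7% is thus not matched to their spread. A gene with a tie for the highest or lowest level was not counted, which lowered the shares of all genes. Clone A3 had the lowest level for 8 of the 10, where it was lowest for 17.2% of all genes. The exceptions were Tyrp1 and Mc1r, for which clone A5 was 0.01 and 0.00 lower than clone A3. Both held, A4 highest and A3 lowest, for 8 of the 10 genes and for 5.47% of all genes. Clone A4 exceeded clone A3 by 0.19 (Tyrp1) to 1.77 (Oca2), with a median of 0.68, against a median of 0.00 over all genes. This pattern was noticed in the data, rests on 1 array per clone and has no test.

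Among the PECAM1+ clones all 45 pairs of these genes ran the same way, with Pearson r from 0.77 to 1.00 over 4 arrays. Over all 6 B16F10 arrays r was above 0 for 43 of the 45 pairs, with a median of 0.66. The highest was 0.99 between Dct and Pmel, and the lowest was -0.57 between Tyr and Mc1r. Points share an array, and 1 array can set such a value. The r values over the PECAM1+ clones largely restate the order of clones A4 and A3 given above and are no separate evidence. No share over other gene pairs was set beside these counts. The genes lie on 9 chromosomes in GRCm38.p6, with Tyr and Oca2 both on chromosome 7. Of the 20 measured genes nearest each, clone A4 was the highest of the PECAM1+ clones for 2 (Mc1r) to 13 (Slc45a2). For the 20 near Slc45a2 the median of clone A4 minus the other PECAM1+ clones was 0.14, against 0.57 for Slc45a2 itself. For the 20 near Tyr it was -0.00, against 0.74 for Tyr itself. The part that position plays in the order of the clones was not tested.

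By likeness over the 6 B16F10 arrays, among 2228 other named genes with a range of at least 1 unit, the nearest to Tyr were Elmod2 (r = 0.98), the selenium transport gene Selenop (0.97) and S100b (0.96), which encodes a calcium-binding protein of melanocytes and glia. S100b was at 9.67, 9.29, 10.46 and 9.50 in clones A2 to A5, 10.03 in clone A1, 8.24 in parental cells and 5.46 in MDEC. The nearest to Oca2 were Cyria (0.98), the orphan receptor gene Gpr37 (0.95) and Dmxl2 (0.94). The nearest to Gpr143 were the osteoprotegerin gene Tnfrsf11b (0.95), the anoctamin gene Ano3 (0.95) and the phosphatase gene Inpp4b (0.95). With 6 arrays, 15 to 21 genes reached an r above 0.9 with each of these 3. In MDEC, Elmod2, Selenop, Cyria and Gpr37 were at 7.84, 10.47, 9.72 and 5.56. Dmxl2, Tnfrsf11b, Ano3 and Inpp4b were at 6.50, 6.41, 7.72 and 7.80 there. Selenop and Cyria were thus higher in MDEC than on any B16F10 array, unlike S100b.

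The other genes of the pigment pathway were followed in 5 lists of 78 genes, of which 73 were measured. Between PECAM1+ and PECAM1- samples limma called 0 of the 73 genes, against 0.0100% of all genes, and the lowest adjusted p was 0.422. An unadjusted p under 0.05 was reached by 9 of them (12.3%), against 9.18% of all genes. Regulators of melanocyte genes (10 measured) had 5 higher and 5 lower, a median of -0.01, and as their largest differences -0.59 ± 0.30 (SE) for Tfe3, -0.21 ± 0.07 for Tfeb and -0.14 ± 0.11 for Creb1. Mitf, the regulator of these genes, had 11.87, 11.50, 11.95 and 11.69 in clones A2 to A5, 11.37 in clone A1 and 11.94 in parental cells. Clone A1 was its low array, and clones A4 and A3 were again the highest and lowest of the PECAM1+ clones.

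Melanocortin and growth factor genes (12 measured) had a median of 0.04, with 0.51 ± 0.24 (SE) for Frzb, -0.33 ± 0.10 for Mgrn1, whose product is a ubiquitin ligase that acts on melanocortin receptors, and 0.28 ± 0.22 for Pomc, which encodes the precursor of their ligand. Genes of melanosome biogenesis and transport (30 measured) had a median of 0.01, with 0.85 ± 0.26 (SE) for the small GTPase gene Rab32, -0.65 ± 0.39 for Lyst and 0.49 ± 0.24 for Mlph, which links melanosomes to myosin. Genes of ion and substrate supply (12 measured) had a median of -0.10, with -0.85 ± 0.21 (SE) for the cystine exporter gene Ctns, -0.72 ± 1.49 for the cystine importer gene Slc7a11 and -0.40 ± 0.25 for Gch1. Lineage genes linked to MITF (9 measured) had a median of -0.08, with -0.86 ± 0.30 (SE) for Ppargc1a, 0.60 ± 0.57 for S100b and -0.31 ± 0.34 for Tspan10.

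Against clone A1 alone, limma called 15 of the 73 pathway genes, of which 5 rose and 10 fell in the PECAM1+ clones. That is 20.5% of them beside 20.5% of all genes. Those higher than in clone A1 were Mlph (0.89 ± 0.17, SE), Rab32 (1.21 ± 0.25), Pax3 (0.35 ± 0.05), Dtnbp1 (0.51 ± 0.10) and Mif (0.29 ± 0.03). Against parental cells alone the differences of Mlph, Rab32, Pax3, Dtnbp1 and Mif were 0.10, 0.49, -0.17, 0.25 and 0.05. Those lower than in clone A1 included Slc7a11 (-3.53 ± 0.43), Ctns (-1.16 ± 0.18) and Tfe3 (-1.10 ± 0.18). For Slc7a11, Ctns and Tfe3 the differences from parental cells alone were 2.09, -0.54 and -0.08. A difference from clone A1 alone rests on 1 array of that clone. Slc7a11 was at 7.30, 8.23, 7.79 and 8.23 in clones A2 to A5, 11.41 in clone A1 and 5.80 in parental cells. A share equal to that of all genes says nothing particular about the pathway. Genes called here but not in the list rule were named after their values were seen.

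Clones A4 and A3 also stood at the ends for part of the pathway. Clone A4 was highest for 30 of the 73 pathway genes (41.1%) and clone A3 lowest for 26 (35.6%). Both held for 18 (24.7%), where the shares of all genes were 19.6%, 17.2% and 5.47%. With median centring the pathway shares were 42.5%, 43.8% and 28.8% and those of all genes 25.1%, 32.7% and 10.3%. With quantile normalization they were 53.4%, 37% and 32.9%, and those of all genes 25.7%, 23.9% and 9.14%. The excess for clone A3 as the lowest was smaller under both scalings. That for clone A4 as the highest was smaller with median centring and larger with quantile normalization. The 18 genes included Mitf, Trpm1, Tspan10, Met, Myo5a, Mlph, Mreg and Rab38, which were named after their values were seen. Trpm1, a channel gene of melanocytes, was at 7.35, 6.53, 8.51 and 7.35 in clones A2 to A5. The median of clone A4 minus clone A3 was 0.66 for the MITF-linked lineage genes, 0.13 for melanosome biogenesis and transport, 0.12 for melanocortin and growth signals, -0.01 for the regulators and -0.03 for ion and substrate supply.

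**Figure D4:**
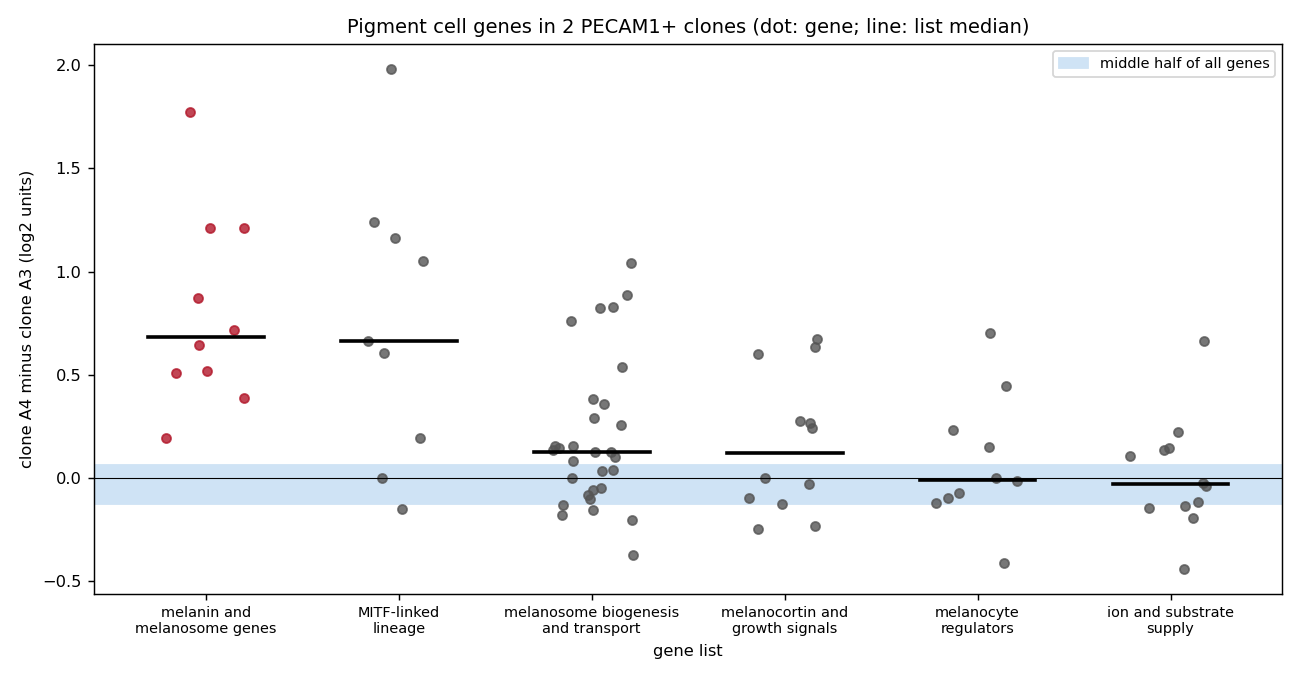
Clone A4 minus clone A3 (vertical axis, log2 units) for each measured gene of the pigment gene lists (horizontal axis); dots are genes, lines are list medians, and the blue band is the interquartile range of all genes (-0.13 to 0.07). All 10 melanin and melanosome genes lie above 0 (0.19 to 1.77), as do 43 of the 73 other pathway genes.

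The last comparison placed the B16F10 arrays against endothelial cells, which are not pigment cells. With 1 MDEC array there was no test, and a rule of size was used: the mean of the PECAM1+ and PECAM1- group means at least 4-fold from MDEC, with MDEC outside the range of the 6 B16F10 arrays. Of the 10 genes, 9 were higher in B16F10 by this rule, where 2.01% of all genes were. The exception was Oca2. The median of B16F10 minus MDEC was 5.88 over the 10 genes and 0.00 over all genes.

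Tyrp1 was at 12.99 in B16F10, as the mean of the group means, and at 4.95 in MDEC, a difference of 8.03, or 262-fold. Dct was at 12.72 in B16F10 and 4.99 in MDEC (213-fold), and Pmel at 12.60 and 6.16 (87.1-fold). The differences of Slc45a2, Slc24a5, Mlana and Tyr were 6.20, 5.91, 5.84 and 5.55. Those of Gpr143 and Mc1r were 4.84 and 4.14, from 9.33 and 10.28 in B16F10 against 4.49 and 6.14 in MDEC. As MDEC had no detection calls, its low values may be background, and these folds are ratios of signal.

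Oca2 was low on most arrays. MDEC held 5.54, which lay above clone A3 (5.41) and below the other 5 B16F10 arrays. Clones A1 and A4 exceeded MDEC by 1.76 and 1.64, whereas clones A5 and A2 and parental cells did so by 0.46, 0.20 and 0.46. For Tyr, the parental array stood 4.20 above MDEC and the other 5 stood 5.34 to 6.55 above it.

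**Figure D5:**
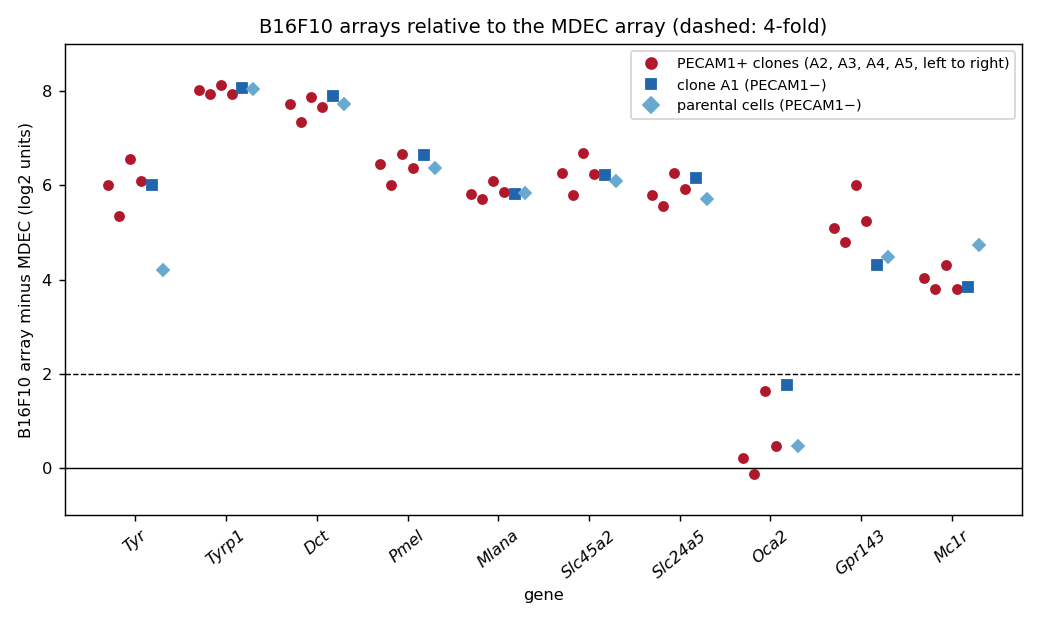
Each B16F10 array minus the MDEC array (vertical axis, log2 units) for the 10 genes (horizontal axis), with the PECAM1+ clones in red, clone A1 as squares and parental cells as diamonds; the dashed line marks 4-fold. All 6 arrays lie above the line for 9 genes and all 6 below it for Oca2.

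In the other pathway lists, 14 of 73 genes were higher in B16F10 by the rule, where 2.01% of all genes were, and 4 were lower, where 2.72% were. The regulators Tfap2a and Mitf were 4.75 and 4.37 above MDEC, and Usf1 and Lef1 -0.86 and -0.02. Rab38 and Mlph were 5.38 and 5.32 above it, with Bloc1s6 and Bloc1s3 at -1.04 and -0.48. Tspan10 and S100b were 4.99 and 3.98 above it, with Birc7 and Bcl2 at 0.02 and 0.07, Mfsd12 and Ddt at 1.14 and 0.80, and Mgrn1 and Pomc at 0.34 and 0.09. The 4 lower in B16F10 were Kit (-4.89), the endothelin receptor gene Ednrb (-4.52), Slc7a11 (-3.37) and Gch1 (-2.46). Slc7a11 was at 11.62 in MDEC, close to clone A1 (11.41) and far above the PECAM1+ clones (mean 7.89) and parental cells (5.80). Kit and Ednrb, receptors known from melanoblast development, were at 5.71 and 4.96 in the PECAM1+ clones (means, n = 4), 5.43 and 4.70 in clone A1, 5.76 and 5.04 in parental cells, and 10.55 and 9.44 in MDEC.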

How the data were processed

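Total RNA of 7 samples was labelled with biotin and hybridised to 1 array each, per the labels' protocols. The authors deposited log2 expression values per probe set, and the submitters' processing notes name Partek. Neither its version nor the summarisation, normalization and build is stated in these sources, and the log2 scale was read from the values. The platform annotation gave 1 symbol to 21789 of 35557 probe sets, several to 1621 and none to 12147. Probe sets with several symbols, 15 of which listed Pmel, were not used. The probe set with the highest mean stood for a gene (999 genes had several), which left 19938 genes; each of the 10 genes had 1. Symbols of all 10 matched RefSeq by Entrez identifier.

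PECAM1+ clones were compared with PECAM1- samples, clone A1 and parental cells by limma 3.58.1 in R 4.3.3 (lmFit, eBayes with trend, two-sided, Benjamini-Hochberg over all genes, threshold 0.05), tested on simulated data. MDEC, with 1 array, was left out of these fits. Differences run PECAM1+ minus PECAM1- and B16F10 minus MDEC. Alternatives were other scalings, a filter on genes under 6 log2 units, other probe set rules, other eBayes settings, array weights and leaving out each array. Genes named beside the 10 were, per list, the 3 largest differences between PECAM1+ and PECAM1- samples, and the 2 highest and 2 lowest in B16F10 minus MDEC; likeness used Pearson r over the 6 B16F10 arrays. The genes, lists and tests were chosen with earlier results of these data known. The number of arrays limits the precision.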

Additional observations from a re-analysis of the deposited data

How the results depend on the processing

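Limma called 0 of the 10 genes in each of the 3 comparisons under every alternative run, and 9 of 10 stayed higher in B16F10 than in MDEC at 2-fold, 4-fold and 8-fold and under each other setting tried. With quantile normalization clone A4 was highest of the PECAM1+ clones for 10 genes (25.7% of all genes) and clone A3 lowest for 8 (23.9%), and with median centring for 10 (25.1%) and 10 (32.7%), against 19.6% and 17.2% of all genes as deposited. Against clone A1, the 4089 genes called of all genes became 2208 without clone A3 and 2108 without clone A5. The scalings of the clone order, for the pathway genes too, leaving out clone A1 from the MDEC rule, and leaving out clone A1 or parental cells from the spread, were chosen after seeing the data. Some signs turned, necessarily of differences that did not pass, because no difference of the 10 genes passed in these comparisons. With quantile normalization Tyrp1 turned to 0.0197 against both PECAM1- samples and 0.0604 against clone A1, Slc45a2 to -0.00579 against clone A1 and Pmel to -0.0547 against parental cells. With median centring Slc45a2 turned to -0.00867 against clone A1 and Pmel to -0.0186 against parental cells. The cause was not tested. Fewer samples also turned signs. Against both PECAM1- samples, leaving out parental cells gave -0.00346 for Tyr and 0.144 for Mc1r. Leaving out clone A1 gave 0.000325 for Pmel, 0.173 for Slc24a5 and 0.0844 for Oca2, leaving out clone A3 gave 0.0566 for Slc24a5, and leaving out clone A4 gave -0.0329 for Mlana and -0.0501 for Slc45a2. Against clone A1, Tyr gave 0.214 without clone A3, and Mlana -0.0229 and Slc45a2 -0.119 without clone A4. Against parental cells, Pmel gave -0.0257 without clone A2, Dct 0.0211 without clone A3, and Pmel -0.0944, Mlana -0.0429 and Oca2 -0.282 without clone A4. No paired analysis was possible because the labels give clone names and no shared replicate numbers. Without detection calls, signal over background could not be set for the low values of Oca2 and of MDEC.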
